A study of Homo sapiens with 2 samples.

Results

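Tubulins are the building blocks of microtubules, and stathmin is a small protein that holds them back from assembly. Their transcripts were compared in Ca9-22, an established human line of gingival squamous carcinoma, without and with ectopic PTHLH, the parathyroid hormone-like ligand. The members are a list of gene names that was drawn up with earlier results of these data known. They are the alpha-tubulin genes TUBA1A, TUBA1B and TUBA1C, the beta-tubulin genes TUBB, TUBB2A, TUBB3, TUBB4B and TUBB6, the gamma-tubulin gene TUBG1 and the stathmin gene STMN1. All 10 genes, of 19775 measured, were found on the arrays with 21 probe sets, groups of short oligonucleotides that each read 1 transcript or several similar ones.

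The control cells carried an empty lentiviral vector and the others a PTHLH vector. Both were stably infected and enriched with blasticidin, which kills cells that lack the resistance gene of the vector, and no cloning step is described for them. Total RNA of 1 culture of each kind was hybridised to 1 array. A difference between the 2 arrays therefore has no replicate check, and neither a p-value nor an SD between cultures can be given. One label field mentions CX-1 cells and RAB3C instead. The grouping here rests on the titles, the characteristics and the methods, which all give Ca9-22 and PTHLH. PTHLH has no probe set named here, so the vector itself was not checked. In such bulk RNA, fewer cells of a type and less RNA per cell cannot be told apart.

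The arrays carried the markers of squamous epithelium. All 8 measured ones lay above both array medians, among them SFN (12880 with the empty vector, 13240 with PTHLH), KRT5 (7823 and 10228) and DSP (3664 and 4239), and their sum was 31978 and 35437. Of 7 fibroblast markers 4 lay below both medians, and their sum was 2529 and 1750. COL1A1 read 2437 and 1652 by its brightest probe set, which makes up most of that sum. Its other probe sets read 102 and 101, 101 and 70.4, 40.8 and 25.8, and 17.1 on both arrays. DCN read 28.6 and 26.3 and PDGFRB 28.2 and 34.3. Of 4 leukocyte markers 2 lay below both medians, with CD79A (51.1 and 59.8), CD3E (20.2 and 19.4) and CD14 (9.81 and 11.7) as the brightest and a sum of 88.2 and 98.8. No marker was at 0, and the part of these shifts in the results was not tested.

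Microtubules are polymers of alpha- and beta-tubulin dimers, and gamma-tubulin forms the template from which they grow. Humans hold several genes for alpha- and beta-tubulin, whose protein products, the isotypes, are alike over most of their length and differ mainly in their acidic tails. Stathmin, also called oncoprotein 18, binds free tubulin dimers and promotes the shortening of microtubules until kinases phosphorylate it in mitosis. Cells also adjust tubulin mRNA to the amount of free tubulin, because the nascent tubulin chain is recognised on the ribosome and its mRNA is then degraded.

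The alpha-tubulin genes TUBA1B and TUBA1C and the stathmin gene were over 1.5-fold brighter with PTHLH, while TUBA1A, the beta-tubulin genes and TUBG1 lay within 1.5-fold. Counting from 1.5-fold, 8 of the 21 probe sets were higher and 0 were lower. Over all 41097 probe sets with 1 gene symbol, 2% passed this fold upward and 2.78% downward. Of the 21, 19 had a mean log2 value of at least 8, the 8 higher ones among them. Over all 5084 probe sets at that level, 2.89% passed the fold upward and 2.66% downward. By the brightest probe set of each gene, 3 of 10 members were higher and 0 were lower, against 1.97% and 3.52% of all genes. The median log2 difference of the 10 genes was 0.22, beside 0 over all genes and 0.04 over the 4060 genes with a mean log2 value of at least 8. The members that passed are fewer independent readings than the count says, since 7 of the 8 probe sets read TUBA1B or TUBA1C and all 7 are of a kind that can bind other transcripts. The study also lists TUBA1B, TUBA1C and STMN1 among pathway molecules that it picked on these arrays at this fold, so that they passed it is not independent evidence.

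**Figure D1:**
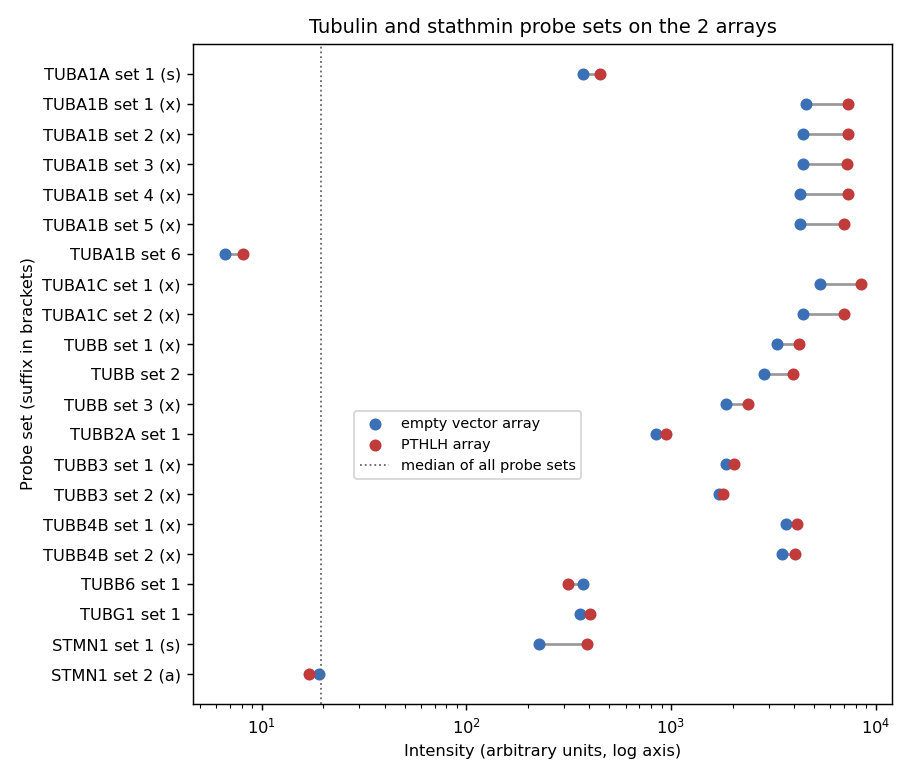
Each line joins the intensities (arbitrary units, log axis) of 1 of the 21 member probe sets with the empty vector (blue) and with PTHLH (red), 1 array each, and the dotted line is the median of all probe sets. Probe sets of a gene are numbered by brightness and the letter in brackets is the suffix of the probe set. The 7 bright probe sets of TUBA1B and TUBA1C and the brighter one of STMN1 show the widest steps to the right. TUBB6 and the dimmer probe set of STMN1 step to the left.

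Affymetrix marks a probe set with the suffix x where some of its probes match other genes, with s where its probes match several transcripts, and with a where they match variants of 1 gene. Of the 21 probe sets, 13 had the suffix x, 2 had s, 1 had a and 5 had none. Intensities of different probe sets depend on the probes, so their order says nothing about the levels of genes, and the sums over markers only describe each list on the 2 arrays. Where the 2 brightest probe sets of a gene both had a mean log2 value of at least 8, their log2 differences varied around each other with an SD of 0.12 per probe set (793 genes). It covers differences between probe sets and not between cultures, and it is small where probe sets share probes.

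TUBA1B encodes the alpha-tubulin of most dividing cells. Its brightest probe set read 4590 with the empty vector and 7314 with PTHLH, a log2 difference of 0.67 (1.59-fold). The other 4 bright ones went from 4404 to 7333 (0.74), from 4434 to 7227 (0.70), from 4274 to 7348 (0.78) and from 4282 to 6987 (0.71). These 5 probe sets all carry the suffix x, and each was past 1.5-fold. The sixth, the one without a suffix, read 6.64 and 8.13, below the array medians of 19.5 and 19.4, with a log2 difference of 0.29.

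TUBA1C encodes an alpha-tubulin that is nearly identical to the product of TUBA1B. Its 2 probe sets went from 5341 to 8449 (a log2 difference of 0.66, 1.58-fold) and from 4434 to 6993 (0.66). One TUBA1B probe set and one TUBA1C probe set held the same value on the empty vector array, 4434, to all deposited digits. Each of the 7 bright probe sets of both genes was higher with PTHLH, by 0.66 to 0.78 on the log2 scale, and they are not replicates. Since all 7 carry the suffix x, signal from the one gene cannot be told apart from that of the other or of another alpha-tubulin. No bright probe set without the suffixes x or s reads either gene.

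TUBA1A, an alpha-tubulin abundant in developing neurons, went from 374 to 451 by its only probe set, with the suffix s. Its log2 difference was 0.27, below that of every bright TUBA1B and TUBA1C probe set, which ranged from 0.66 to 0.78. The 3 genes lie close together on chromosome 12, with TUBA1A as the only protein-coding gene between TUBA1B and TUBA1C in assembly GRCh38.p14.

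STMN1 went from 227 to 388 by its brighter probe set, with the suffix s, a log2 difference of 0.77 (1.71-fold). This was the largest difference among the brightest probe sets of the 10 genes. Its other probe set, with the suffix a, read 19.2 and 17.0, just below the median of each array, with a log2 difference of -0.17. The higher value of STMN1 therefore rests on 1 probe set. A further probe set, paired with STMN1 and a microRNA gene and so not counted, read 25.1 and 31.6 (0.33).

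**Figure D2:**
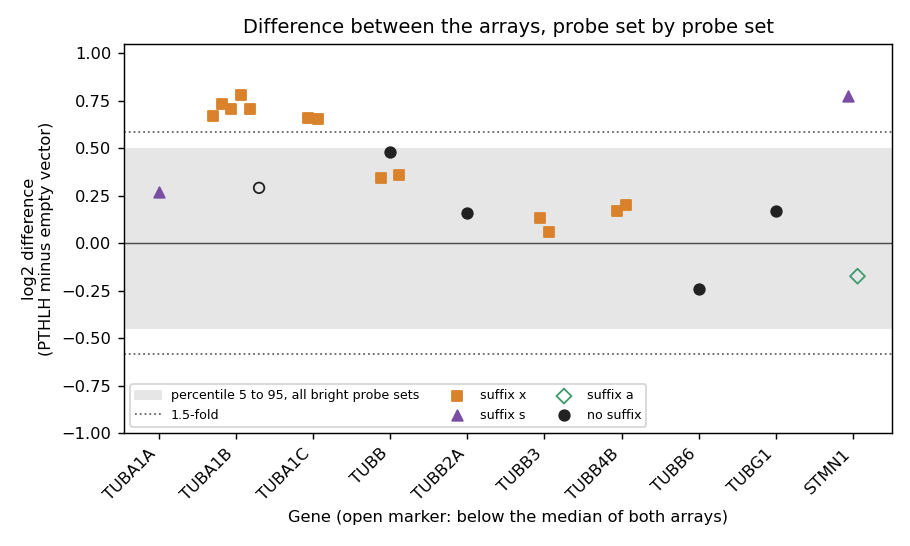
Log2 difference (PTHLH minus empty vector) on the y axis for each of the 21 probe sets, grouped by gene, with marker shape for the suffix and open markers for the 2 probe sets below the median of both arrays. The grey band holds percentile 5 to 95 of the 5084 bright probe sets (-0.45 to 0.50) and the dotted lines mark 1.5-fold. The bright TUBA1B and TUBA1C probe sets and 1 of STMN1 lie above the band, and all others lie inside it.

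The beta-tubulin genes differed less. TUBB, the main beta-tubulin of dividing cells, went from 3312 to 4208 by its brightest probe set, a log2 difference of 0.35 (1.27-fold). Its second probe set, which has no suffix, went from 2838 to 3961 (0.48, 1.40-fold), and the third from 1853 to 2377 (0.36). Each of these 3 differences was larger than that of any other beta-tubulin probe set, and none reached 1.5-fold.

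TUBB4B, another widely expressed beta-tubulin, went from 3656 to 4120 (a log2 difference of 0.17) and from 3488 to 4015 (0.20). TUBB2A went from 849 to 948 (0.16) by its only counted probe set, which has no suffix. A dimmer probe set paired with TUBB2A and a close paralog was not counted and had a log2 difference of -0.01.

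TUBB3, a beta-tubulin used as a marker of neurons and known from many carcinomas, went from 1862 to 2041 (0.13) and from 1719 to 1791 (0.06). Both of its probe sets carry the suffix x. Of 8 neuron markers, 7 lay below the medians of both arrays and the sum was 106 with the empty vector and 109 with PTHLH. The brightest were SYP (30.7 and 36.4), ELAVL3 (17.0 and 17.6) and NEFM (14.5 and 13.0).

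TUBB6 was the only member with a lower value on the PTHLH array by its brightest probe set. It went from 372 to 314, a log2 difference of -0.24 (1.18-fold lower), by 1 probe set without a suffix. TUBB6 diverges more in sequence from the other beta-tubulins. TUBG1, the gamma-tubulin of the centrosome, went from 358 to 402 (0.17), also by 1 probe set without a suffix. Neither value was past 1.5-fold.

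The 9 bright beta-tubulin probe sets spanned log2 differences of -0.24 to 0.48 and the 7 of TUBA1B and TUBA1C 0.66 to 0.78, while TUBA1A, with 0.27, lay inside the beta range. The lowest of these 7 lay 0.18 above the highest beta-tubulin probe set. The SD of log2 differences between genes with a mean log2 value of at least 8 was 0.30, and that between probe sets of a gene was 0.12. Neither SD measures the spread of such a gap, and its spread between cultures is not known. Of the bright probe sets, 18 of 19 were higher on the PTHLH array. Among these are the 7 of TUBA1B and TUBA1C, whose signals cannot be told apart. The share of higher ones over all probe sets at that level was not counted. By gene, 9 of 10 members were higher, while 57.0% of genes with a mean log2 value of at least 8 and 48.5% of all genes were higher.

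The upstream sequences of the genes past 1.5-fold are shown beside 2 members that lay within it, because TUBB4B and TUBG1 share short motifs with TUBA1C and STMN1. RefSeq windows of GRCh38.p14 were found for all 10 members, 17 in all, and the 250 bases before each start were searched on both strands. Capitals mark the CCAAT box (CCAAT), the cell cycle homology region (TTTGAA), an E2F-like motif (TTTNGCG), the E-box (CACGTG) and a TATA-like motif (TATAA), and each stretch ends at the base before the start. For genes with several annotated starts, the window with the most kinds of these motifs is shown, and which start these cells used is not known here. The stretches lie at chr12:49131396-49131515 (TUBA1B, minus strand), chr12:49264832-49265081 (TUBA1C, plus strand), chr1:25906420-25906539 (STMN1, minus strand), chr9:137241037-137241286 (TUBB4B, plus strand) and chr17:42609563-42609682 (TUBG1, plus strand).
TUBA1B: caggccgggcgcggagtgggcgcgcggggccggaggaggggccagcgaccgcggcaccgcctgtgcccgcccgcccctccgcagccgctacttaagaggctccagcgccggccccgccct
TUBA1C: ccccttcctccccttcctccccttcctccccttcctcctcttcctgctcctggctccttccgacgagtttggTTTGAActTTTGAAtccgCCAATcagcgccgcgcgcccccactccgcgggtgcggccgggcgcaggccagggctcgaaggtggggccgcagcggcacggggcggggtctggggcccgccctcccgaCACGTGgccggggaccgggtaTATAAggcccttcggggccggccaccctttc
STMN1: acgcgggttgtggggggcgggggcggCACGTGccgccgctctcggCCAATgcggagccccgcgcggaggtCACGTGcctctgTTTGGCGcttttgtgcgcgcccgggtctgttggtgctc
TUBB4B: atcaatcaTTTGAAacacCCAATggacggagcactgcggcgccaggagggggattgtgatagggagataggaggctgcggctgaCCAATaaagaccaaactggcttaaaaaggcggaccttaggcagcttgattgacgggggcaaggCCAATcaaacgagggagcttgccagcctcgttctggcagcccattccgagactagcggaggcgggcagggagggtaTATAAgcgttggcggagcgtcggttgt
TUBG1: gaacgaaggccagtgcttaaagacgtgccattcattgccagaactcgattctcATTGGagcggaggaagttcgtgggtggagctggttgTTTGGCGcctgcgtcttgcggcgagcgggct

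The 250 bases before the start held these motifs as follows. TUBA1B (a log2 difference of 0.67) held none of them within 250 bases, whereas TUBA1C (0.66) held a CCAAT box, 2 copies of TTTGAA, an E-box and a TATA-like motif. TUBB4B (0.17) held 3 CCAAT boxes, TTTGAA and a TATA-like motif. STMN1 (0.77) held a CCAAT box, 2 E-boxes and the E2F-like motif, and TUBG1 (0.17) held the E2F-like motif and a CCAAT box. Over all 35116 windows, 32% held CCAAT, 13.3% TTTGAA, 4.32% TTTNGCG, 6.34% CACGTG and 18.9% TATAA. These shares count every window, whereas the windows of TUBA1C and STMN1 were each picked from 3 by their motifs, so the 2 are not alike. The other STMN1 windows held none of the motifs. The other TUBA1C windows each held a CCAAT box but no E-box or TATA-like motif. A match of letters is a description and shows no binding.

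Other genes of the microtubule system were read from 9 lists. Over their 105 measured genes, 2 passed 1.5-fold upward (1.90%) and 4 downward (3.81%), near the shares over all genes. These counts take the brightest probe set of each gene. Of the dimmer probe sets, 9 were past 1.5-fold in either direction, 6 of them above both array medians. These 6 were in TUBGCP5, TBCD, MAPT, MAPRE3, TACC2 and MAPK13, which were looked up after the values were seen. The total of dimmer probe sets was not counted. The 9 can therefore not be set as a share against the 2% upward and 2.78% downward over all probe sets with 1 gene symbol. The median log2 difference of the 105 genes was 0.04.

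Of 13 other tubulin genes, 9 had a probe set named here and 5 of these lay below both medians. TUBE1, the epsilon-tubulin of centrioles, was the only one past 1.5-fold, from 62.4 to 41.4 (a log2 difference of -0.59). Its second probe set was dim, with 0.14. By the brightest probe set, the median of the 9 genes was -0.14, and 2 of them were higher with PTHLH. The 4 genes above both medians were each lower. Beside TUBE1 these were TUBG2 (-0.48), TUBA4A (-0.18) and TUBD1 (-0.08), which were looked up after the values were seen. The other stathmin family genes, which are mainly neuronal, did not reach 1.5-fold by any probe set. STMN2 read 7.18 and 8.23, STMN3 54.6 and 47.4, and STMN4 29.2 and 33.9, with log2 differences of 0.20, -0.20 and 0.22. In each of these 3 genes the second probe set had the opposite sign.

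None of 18 measured genes of the gamma-tubulin ring complex and augmin, which start new microtubules, was past 1.5-fold by its brightest probe set, and their median was 0.11. TUBGCP6, a subunit of the ring complex, had the largest difference by that measure, from 66.3 to 44.8 (-0.56). TUBGCP5, a further subunit, went from 24.0 to 39.9 by its dimmer probe set (0.74, 1.67-fold) and had 0.14 by its brightest. None of 19 measured genes of tubulin folding was past 1.5-fold by its brightest probe set either, with a median of 0.11. CCT6A, a subunit of the cytosolic chaperonin that folds tubulin and actin, had the largest difference by that measure, from 1253 to 1774 (0.50). All 7 measured subunits of that chaperonin were higher by it, with 0.12 to 0.50 and a median of 0.29. Of 7 tubulin cofactor genes, counted with TBCEL and ARL2, only 2 were higher. They ranged from -0.28 to 0.11, with a median of -0.12. TBCD, a cofactor that helps to assemble the dimer, had 0.11 by its brightest probe set, but 1 of its other 5 went from 69.4 to 111 (0.68, 1.60-fold).

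In the pathway that degrades tubulin mRNA when free tubulin is in excess, TTC5, which recognises the nascent tubulin chain, went from 148 to 149 (a log2 difference of 0.01). CNOT11, of the CCR4-NOT deadenylase, went from 217 to 241 (0.15). SCAPER, the adaptor between them, went from 54.5 to 35.4 by its brightest probe set (-0.62, 1.54-fold lower), which carries the suffix x. Its other probe sets had -0.30 and -0.55 and lay near or below the array medians.

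Of 18 tubulin modifying enzymes, TTLL1 and TPGS2 passed 1.5-fold in opposite directions. TTLL1, the catalytic subunit of a tubulin polyglutamylase, went from 87.3 to 53.9 by its only probe set, with the suffix s (-0.70). TPGS2, a further subunit of that enzyme, went from 285 to 436 (0.61), but its other 6 probe sets ranged from -0.49 to 0.37. The median of the list was 0.03.

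Of 24 microtubule-associated and plus-end proteins, TPX2, which promotes spindle assembly around chromosomes, went from 494 to 744 (0.59, 1.51-fold). CLIP2, a plus-end linker protein, went from 483 to 256 (-0.92). Each has 1 probe set, with the suffix s. By dimmer probe sets, MAPT, which also stands in those pathway lists of the study, had -0.59, MAPRE3 -0.85 and TACC2 0.66. Their brightest probe sets had -0.55, -0.47 and 0.46. All MAPT probe sets lay between -0.59 and -0.47. The other MAPRE3 ones lay between -0.47 and -0.23 and the other TACC2 ones between 0.04 and 0.46. The median of the list was 0.02. Of 5 measured severing enzymes none was past 1.5-fold by any probe set, and KATNAL1, a katanin, had -0.41. Of 6 measured kinases known to phosphorylate stathmin, MAPK13, the delta form of p38, had the largest difference. It went from 240 to 355 (0.57) and, by its second probe set, from 203 to 310 (0.61, 1.52-fold). MAPK13 too stands in the study's pathway lists.

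**Figure D3:**
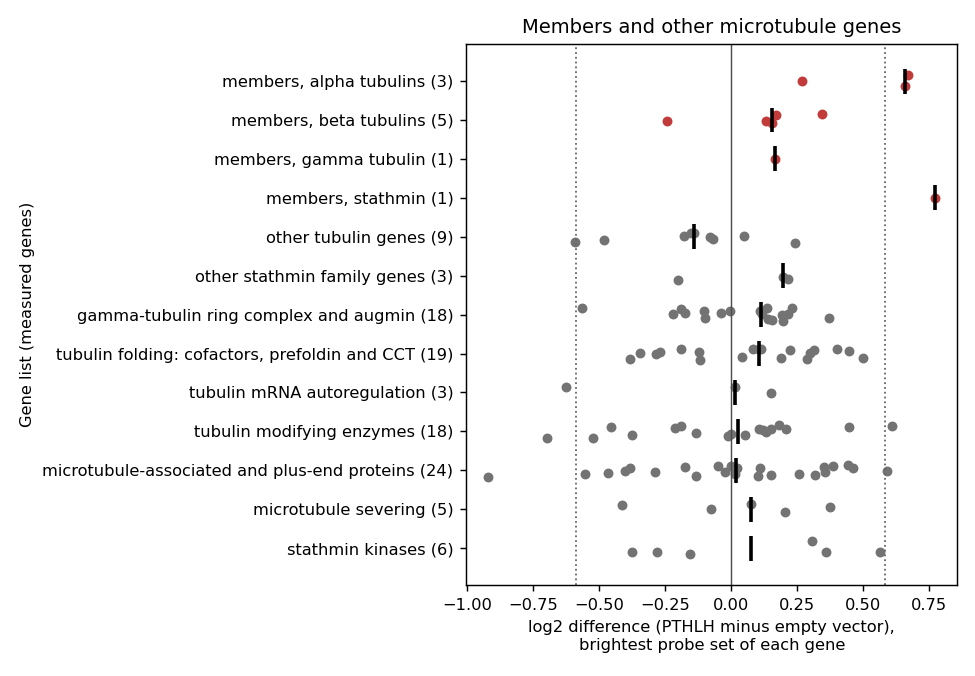
Log2 difference (PTHLH minus empty vector) on the x axis by the brightest probe set of each measured gene, with the members in red, the genes of the 9 other lists in grey, the median of each list as a black bar and 1.5-fold as dotted lines. Points are spread vertically only to separate them. TUBA1B, TUBA1C and STMN1 lie right of the upper line at 0.66 to 0.77, and the medians of the other lists lie between -0.14 and 0.20.

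The choice of probe sets decided which members passed. Without the probe sets of suffix x or s, 0 of the remaining members were past 1.5-fold. TUBA1B was then read only by its dim probe set (0.29) and STMN1 only by its dim one (-0.17), TUBB was at 0.48, and TUBA1A, TUBA1C, TUBB3 and TUBB4B had no probe set left. The 4 bright probe sets that carry neither suffix, of TUBB, TUBB2A, TUBB6 and TUBG1, ranged from -0.24 to 0.48. Under quantile normalization each gene kept its sign. The centring and floor alternatives returned the reported value for every member, so they add nothing to this.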

How the data were processed

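Total RNA of Ca9-22 cells with the empty vector and with the PTHLH vector was hybridised to Affymetrix U133 arrays, 1 per condition. The deposited intensities are on a linear scale, 1 per probe set, and were made by the authors from the scanned arrays. How background was corrected, arrays were normalized and probes were combined is not given in the sources used here. Each log2 difference is log2 of the PTHLH intensity minus log2 of the empty vector intensity. Gene names came from the platform annotation and were brought up to date by gene identifier (GRCh38.p14). Promoter windows came from RefSeq on that assembly. Of 54675 probe sets, 41097 carried 1 symbol and were used, 1801 carried several, and 11777 are unnamed here. A gene was represented by its brightest probe set (mean log2 value of both arrays). With 1 array per condition no test was possible, and precision is limited by the number of arrays. The fold counted was 1.5, as in the study.

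The members and the gene lists were chosen with earlier results of these data known. From each of the other lists, genes were named by rule, namely those past 1.5-fold and above the median of at least 1 array (at most 4 per direction), or else the gene with the largest difference above both medians, or the whole list where it held 3 genes or fewer. From each marker list the 3 brightest genes were named. Alternatives were quantile normalization, centring on bright probe sets, removal of dim probe sets, raising low values to percentile 40, an offset of 16, removal of probe sets marked x or s, the median or the largest change over probe sets, and a 2-fold threshold. The counting was tested on simulated data. Python 3.11.15, pandas 2.3.3, numpy 2.4.6 and matplotlib 3.10.9 were used.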

Additional observations from a re-analysis of the deposited data

How the results depend on the processing

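The 2 arrays allow no replicate to be left out and no paired analysis. Of 8 probe sets and 3 member genes at least 1.5-fold higher, 0 and 0 remained when probe sets marked x or s were left out. All 8 carry one of these suffixes, so that setting removed each of them. At a 2-fold threshold 0 and 0 remained as well, since the largest member difference was 0.78 on the log2 scale (1.72-fold). With probe sets marked x or s left out, STMN1 turned from a log2 difference of 0.77 to -0.17, the value of its dim probe set. With the median over probe sets STMN1 was at 0.30. No member was at least 1.5-fold lower under any of the 9 alternatives. Of 76 values of single member genes under the alternatives, 75 kept their sign, 71 moved by less than the SD between probe sets of 0.12, 4 moved further and 1 was reversed. Many of the 76 say little about stability. Centring, the floor and removal of dim probe sets returned the reported value for every member. For a member with 1 probe set, the median and the largest change over probe sets are that same value. The normalization used by the authors is unknown, and with 1 array per condition a difference between cultures cannot be told apart from one of the vector.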
